A study of Mus musculus with 10 samples.

Results

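The claudins Cldn4, Cldn6 and Cldn7, the keratins Krt8, Krt18 and Krt19, the adhesion gene Epcam, the splicing regulators Esrp1 and Esrp2 and the transcription factor gene Grhl2 were followed through a mouse differentiation course. They were picked by symbol, and all 10 were found among the 52459 gene symbols of the deposited count table. RNA came from ES-Bruce4, a C57BL/6 embryonic stem cell line labelled wild type, on its way to neuromesodermal progenitors, the cells of the embryo's tail end that feed both spinal cord and trunk mesoderm. Every culture followed the protocol of bFgf at 10 ng/ml from day 0 and CHIR99021, a Gsk3 inhibitor that switches on Wnt signalling, at 5 µM from day 2, with a split on day 3. Cells were collected on day 2 (D2), which the labels call epiblast stem cells, and on day 3 (D3), day 6 (D6) and day 7, all called neuromesodermal progenitors. On day 7 there were cells that had received Gdf11 at 50 ng/ml on day 6 for 24 h (D7G) and cells that had not (D7), and each of the 5 groups had n = 2 libraries. Gdf11, a Tgf-β superfamily growth factor, is known for its part in patterning the posterior trunk and tail.

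A single line was used, and the stem cells had been grown on fibroblast feeders that were removed by 1 round of settling. The labels do not say whether the D2 cells were taken before CHIR99021 went on, nor whether the replicates of a group came from different cultures. The p-values therefore reflect the spread among the libraries at hand and nothing wider, and that spread may be technical. RNA of all cells of a dish was pooled, so fewer cells of a type and less RNA per cell cannot be told apart.

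Epithelial cells hold together in sheets, and these genes serve that state. Claudins are membrane proteins that form the strands of tight junctions and seal the space between neighbouring cells. Krt8, a type II keratin, pairs with the type I keratins Krt18 and Krt19 to make the intermediate filaments of simple epithelia, the kind found in early embryos. Epcam is a surface glycoprotein of epithelial and pluripotent cells that associates with claudins, Esrp1 and Esrp2 are RNA-binding proteins that impose epithelial splice forms on many transcripts, and Grhl2 is a grainyhead-like factor that activates junction genes. Cells that leave the primitive streak lose much of this state as they form mesoderm.

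The libraries held 31078950 to 33418015 counts, with 1.86 to 2.48% on mitochondrial genes. Across the 18818 genes tested, log2(CPM + 1) correlated at 0.998 or more between replicates and at 0.995 or less between groups. All 5 primed epiblast markers (Fgf5, Otx2, Pou3f1, Dnmt3b, Pou5f1) exceeded 1 CPM on D2, and their summed level was 414 to 423 CPM on D3 against 2190 CPM on D2. The 5 progenitor markers (T, Sox2, Nkx1-2, Cdx2, Wnt3a) summed to 164 to 172 CPM on D2, 808 to 816 on D3, 465 to 467 on D6, 270 to 274 on D7G and 333 to 334 CPM on D7, and from D6 on Wnt3a lay under 1 CPM. Sox2 made up most of the sum on D2 (163 CPM) and on D7 (232 CPM). T had 0.919 CPM on D2, 232 on D3 and 19.8 on D7, and Nkx1-2 had 3.45, 235 and 39.9 CPM.

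Promoters were read for 6 of the 10 genes, Cldn4, Cldn6, Cldn7, Krt8, Krt18 and Epcam, from RefSeq windows of 300 bases (build GRCm38.p6) that run from 250 bases before the start site to 50 bases from it. The letters CAGGTG on either strand (CACCTG on the other) are the E-box that Snai and Zeb repressors are known to bind. They stood in at least 1 window of all 6 genes, 10 times in 6 of their 7 windows, and more than once in 4 genes. Of all 32544 RefSeq windows 20.3% hold these letters, and of 27025 genes 22.6%. The grainyhead-like motif AACCNGTT, searched on both strands, was in the windows of 0 of the 6 genes and in 2.09% of all windows. A match in letters is a description and not evidence of binding, and a missing match says only that these letters are not in the window. The windows of 2 keratins and a claudin that were higher on D3 and of Epcam, which was lower, are shown to their base 30 from the start site, 5′ to 3′ on the strand of the gene. Capitals mark the E-box letters, of which the first base lies 14 bases before the start and at base 12 in Cldn4, 111 bases before it in Krt8, 214 bases before it in Krt18, and 187 and 19 bases before it in Epcam.
Cldn4 (chr5:134946905-134947184, minus strand): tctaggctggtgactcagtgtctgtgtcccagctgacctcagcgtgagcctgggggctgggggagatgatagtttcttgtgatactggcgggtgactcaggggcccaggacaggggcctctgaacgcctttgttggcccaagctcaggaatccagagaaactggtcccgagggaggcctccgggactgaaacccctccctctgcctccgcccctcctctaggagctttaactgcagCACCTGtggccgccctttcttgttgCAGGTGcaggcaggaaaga
Krt8 (chr15:102004313-102004592, minus strand): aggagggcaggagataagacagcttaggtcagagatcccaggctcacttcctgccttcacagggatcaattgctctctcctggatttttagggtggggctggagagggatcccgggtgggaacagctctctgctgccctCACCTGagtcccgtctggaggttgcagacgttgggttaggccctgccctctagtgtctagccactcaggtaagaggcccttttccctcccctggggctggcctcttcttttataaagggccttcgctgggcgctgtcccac
Krt18 (chr15:102027966-102028245, plus strand): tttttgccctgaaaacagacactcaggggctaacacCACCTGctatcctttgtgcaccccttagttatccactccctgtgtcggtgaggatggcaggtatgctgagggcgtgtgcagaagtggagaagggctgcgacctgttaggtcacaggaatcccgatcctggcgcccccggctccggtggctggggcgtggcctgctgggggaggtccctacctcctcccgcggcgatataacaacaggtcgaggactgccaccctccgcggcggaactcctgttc
Epcam (chr17:87635729-87636008, plus strand): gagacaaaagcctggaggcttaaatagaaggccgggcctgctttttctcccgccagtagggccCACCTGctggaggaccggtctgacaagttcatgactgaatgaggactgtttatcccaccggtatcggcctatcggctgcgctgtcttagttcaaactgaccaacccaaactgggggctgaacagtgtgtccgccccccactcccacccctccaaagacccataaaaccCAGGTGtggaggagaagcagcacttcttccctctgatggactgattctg

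Levels are given as CPM scaled by TMM, which corrects for depth and composition of a library. Cldn4, a claudin of many epithelia (chr5:134945119-134946934 of mm10, minus strand), had 120 and 119 CPM on D2, 241 and 265 on D3, 27.8 and 30.4 on D6, 67.4 and 63.9 on D7G, and 39.5 and 46.4 CPM on D7. Its D3 libraries were the highest and its D6 libraries the lowest, and no group overlapped another. Cldn6, an embryonic claudin (chr17:23679365-23682446, plus strand), had 102 and 106 CPM on D2, 137 and 155 on D3, 41.7 and 45.2 on D6, 89.2 and 78.7 on D7G, and 50 and 56.6 CPM on D7. It kept the same order of groups with a smaller range. Cldn7, which binds Epcam in epithelia (chr11:69964779-69967885, plus strand), had 48.5 and 52.3 CPM on D2, 38.9 and 41.9 on D3, 11.1 and 12.8 on D6, 27.3 and 24.2 on D7G, and 17.6 and 18.5 CPM on D7. Unlike the other 2 claudins it was highest on D2.

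The 3 keratins had their highest libraries on D3 and D7G and their lowest on D2. Krt8 (chr15:101996711-102004342, minus strand) had 35.9 and 35 CPM on D2, 165 and 215 on D3, 52.4 and 58.2 on D6, 133 and 109 on D7G, and 58.4 and 59.7 CPM on D7. The D6 and D7 libraries of Krt8 lay close together, without overlap. Its partner Krt18 (chr15:102028216-102032026, plus strand), the next keratin along the chromosome, had 50.2 and 51.4 CPM on D2, 146 and 202 on D3, 58.8 and 59 on D6, 161 and 133 on D7G, and 75.3 and 82 CPM on D7. The D3 and D7G libraries of Krt18 overlapped. Krt19 (chr11:100140810-100148665, minus strand) had 5.44 and 6.13 CPM on D2, 46.4 and 56.8 on D3, 8.75 and 9.04 on D6, 26.1 and 22.5 on D7G, and 12.9 and 14.5 CPM on D7. As a ratio of its highest to its lowest library it varied most of the 3 keratins, its D3 libraries standing well above all others.

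Epcam, Esrp1 and Grhl2 had their highest libraries on D2, and Esrp2 did not. Epcam (chr17:87635979-87651106, plus strand) had 349 and 357 CPM on D2, 164 and 177 on D3, 51.2 and 60.6 on D6, 99.2 and 81.9 on D7G, and 64.6 and 67.5 CPM on D7. Esrp1 (chr4:11331933-11386783, minus strand) had 127 and 126 CPM on D2, 66.5 and 68.2 on D3, 10.5 and 12.2 on D6, 20 and 16.3 on D7G, and 13.5 and 14.7 CPM on D7. Both genes were lower in each D3 library than on D2 and lower again on D6. Esrp2 (chr8:106130319-106136974, minus strand) had 10.2 and 11.1 CPM on D2, 19.3 and 20.9 on D3, 5.86 and 7.65 on D6, 13.2 and 11.4 on D7G, and 7 and 6.99 CPM on D7. The course of Esrp2 thus resembled that of Cldn4 more than that of its paralogue, and its D7 values lay between those of the 2 D6 libraries. Grhl2 (chr15:37233036-37363569, plus strand) had 43.2 and 42.3 CPM on D2, 20.4 and 22 on D3, 3.89 and 4.78 on D6, 5.46 and 4.73 on D7G, and 4.16 and 3.46 CPM on D7. From D6 on it was the lowest of the 10 in CPM, with D6 overlapping both day 7 groups.

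**Figure D1:**
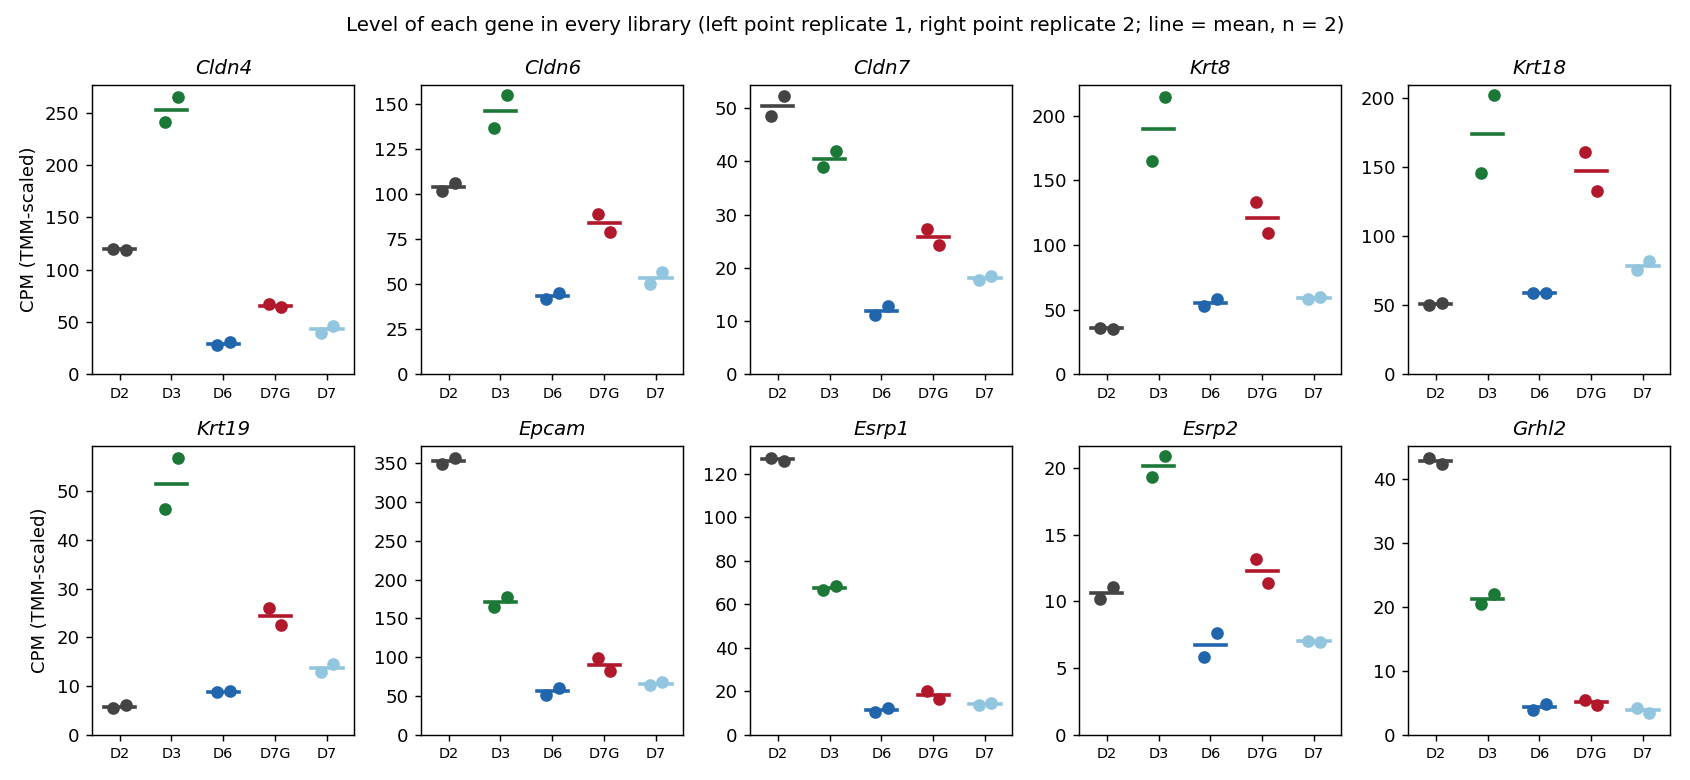
CPM (TMM-scaled, linear axes from 0) of each of the 10 genes in every library, with groups along the x axis, 2 points per group and a line at their mean. Cldn4, Cldn6, Esrp2 and the keratins peak on D3, at 241 and 265 CPM for Cldn4, while Epcam, Esrp1, Grhl2 and Cldn7 are highest on D2.

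On D3, D6 and D7G the 10 genes deviated together. On D3 and on D6 replicate 2 was higher than replicate 1 in all 10 genes, on D7G replicate 1 was higher in all 10, on D7 replicate 2 in 8, and on D2 replicate 2 in 6. Of the 16011 genes with at least 1 CPM, 48.3 to 51.8% were higher in replicate 1 of a group. The spread was widest for the keratins on D3, where Krt8 averaged 190 ± 35.7 CPM and Krt18 174 ± 39.2 CPM (SD, n = 2).

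Levels per kilobase of deposited gene length put Epcam first on D2 (173 ± 2.67 CPM per kb), followed by Cldn6 (69.2 ± 1.94) and Cldn4 (65.9 ± 0.297 CPM per kb). On D3 Cldn4 came first (139 ± 9.3 CPM per kb), ahead of Krt18 (124 ± 28), Krt8 (105 ± 19.8), Cldn6 (96.8 ± 8.32) and Epcam (83.4 ± 4.51 CPM per kb). On D3 neither Cldn4 and Krt18, Krt18 and Krt8, nor Krt8 and Cldn6 differed beyond their spread. On D6, D7G and D7 Krt18 came first, with 42.1 ± 0.0901, 105 ± 14.3 and 56.1 ± 3.39 CPM per kb. Behind it on D6 came Krt8 (30.6 ± 2.29), Cldn6 (28.9 ± 1.67) and Epcam (27.4 ± 3.25 CPM per kb), which did not differ beyond their spread. The same 3 followed on D7G, Krt8 at 67 ± 9.46, Cldn6 at 55.7 ± 4.9 and Epcam at 44.4 ± 5.99 CPM per kb, and on D7, Cldn6 at 35.4 ± 3.07, Krt8 at 32.7 ± 0.498 and Epcam at 32.4 ± 1.02 CPM per kb. With transcript lengths from GENCODE the order of Cldn6 and Cldn4 on D2 and of Epcam and Cldn6 on D6 turned round, and the other 46 of 50 ranks were the same. With the counts of the second deposited table, a choice made after seeing the data, 43 of 50 ranks were the same, and Krt8 moved up on D3 to the first place (142 ± 28.2 CPM per kb, ahead of Cldn4 at 139 ± 9.14), on D7 to the second and on D2 past Esrp1. Esrp2 was the lowest per length on D2 (2.44 ± 0.149 CPM per kb), and Grhl2 on D3 (3.85 ± 0.208), D6 (0.788 ± 0.113), D7G (0.925 ± 0.0937) and D7 (0.692 ± 0.0894 CPM per kb).

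The balance between partners shifted along the course. Krt8 stood at 0.554 and 0.529 of the Krt18 level per kb on D2, 0.875 and 0.829 on D3, 0.691 and 0.765 on D6, 0.64 and 0.635 on D7G, and 0.602 and 0.565 on D7. The ratio was highest in the D3 libraries. Esrp1 stood at 8.61 and 7.81 times the Esrp2 level per kb on D2, 2.37 and 2.25 on D3, 1.23 and 1.1 on D6, 1.04 and 0.985 on D7G, and 1.33 and 1.45 on D7. The excess of Esrp1 over its paralogue was large on D2 and nearly gone on D7G.

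The share held by other claudins varied along the course, while other keratins contributed little. Cldn4, Cldn6 and Cldn7 together held 84.1 to 84.3% of the summed level per kb of 23 claudins on D2, 86.1 to 87.6% on D3, 57.5 to 61.2% on D6, 80 to 81.7% on D7G and 67.3 to 69.7% on D7. Of the 20 other claudins 13 lay under 1 CPM in every group and 2 reached 5 CPM, Cldn12 and Cldn3. Cldn12, which differs from classical claudins in lacking their usual tail motif, took much of the remainder on D6, with 125 and 119 CPM. The 3 keratins held 92.9 to 98.1% of the summed level per kb of 50 keratins in every library. Of the 47 others only Krt7, another simple-epithelial keratin, reached 5 CPM, and 42 lay under 1 CPM in every group.

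Across the 10 libraries, log2(CPM + 1) of the genes fell into sets, described by Pearson's r over libraries that share the same 5 groups. Krt8 and Krt19 had r = 0.98 and Krt8 and Krt18 0.97. Epcam, Esrp1 and Grhl2 had r = 0.98 to 0.99 among themselves, and Cldn4 and Cldn6 r = 0.98. The keratins and Epcam had r near 0, -0.11 for Krt8 and Epcam. Cldn7 was nearer to Epcam (r = 0.95) than to Cldn4 (0.89), and Esrp2 nearer to Cldn6 (0.94) than to Esrp1 (0.62).

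Genes of similar course were sought outside the gene and marker lists used below, and without predicted or clone names. Listed genes, such as those of junctions, were thus not candidates, and how close they come was not read. Among the 3507 remaining genes with at least 5 CPM in a group and a range of at least 2-fold, Mcam, a cell adhesion molecule, was closest to the mean standardised profile of the 10 (r = 0.994). It had 49.2, 94.8, 14.6, 36.7 and 22 CPM on D2, D3, D6, D7G and D7. Mvp (0.99), the main protein of vault particles, and Cep170b (0.988) came next. Chrnb1, Trnp1, Dennd2c and S100a10 followed at 0.987, Sp6 and Lif at 0.986 and Slc8b1 at 0.985. Closest to single genes were Cep170b, Ifnlr1 and Egfr for Cldn4 (r = 0.994 to 0.997), Lamb3, Ahnak2 and Sfn for Esrp2 (0.985 to 0.988), Pianp, Hook1 and Tpd52 for Epcam (0.997 to 0.998), and Camk2b, Arhgap27 and Gab1 for Esrp1 (0.998). For Cldn6 they were Chrnb1, Npepl1 and Mcam (0.991 to 0.993), for Cldn7 Als2cl, Ypel3 and Bst2 (0.992 to 0.994), and for Grhl2 B3gnt7, Zfp991 and Rbpms (0.997). For the keratins they were Krt8-ps (0.999), Fbxw9 and Gad1 for Krt8, Kctd11, Tapbp and Parp10 for Krt18 (0.98 to 0.985), and Tapbp, Fbxw9 and Cd63-ps for Krt19 (0.989 to 0.993).

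**Figure D2:**
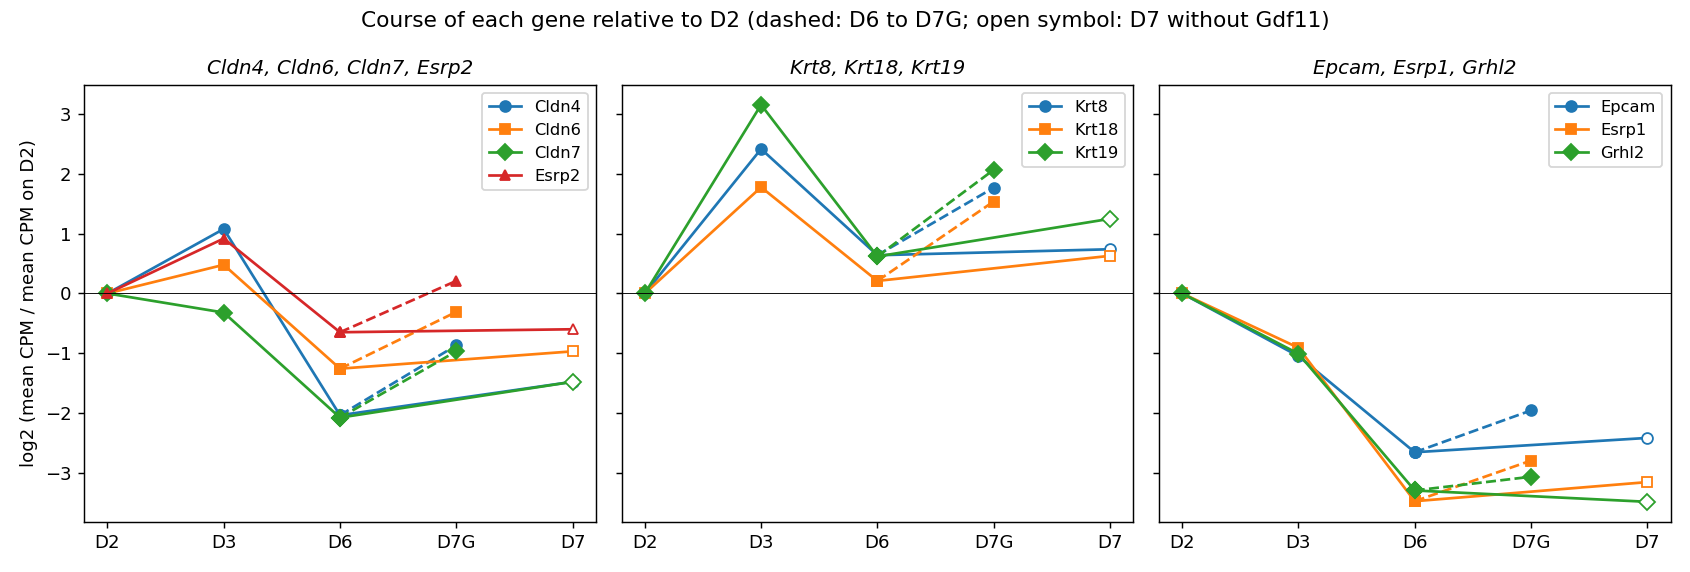
Log2 ratio of each gene's group mean CPM (n = 2) to its D2 mean, for 3 sets of genes, over D2, D3, D6, D7G and D7, with dashed lines from D6 to D7G and open symbols for D7 without Gdf11. The keratins stay above their D2 mean in all later groups, whereas Epcam, Esrp1 and Grhl2 stay below it, Esrp1 at -3.48 on D6.

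The comparison of D3 with D2 covers the day from day 2, when the protocol adds CHIR99021. Whether the D2 cells had already received it is not stated. The keratins rose most, Krt19 8.92-fold, Krt8 5.37-fold and Krt18 3.42-fold, and Cldn4, Esrp2 and Cldn6 rose with them. Epcam, Esrp1 and Grhl2 fell to 48.2, 53.3 and 49.5% of their D2 means, and Cldn7 fell less. All 10 genes were thus called at an adjusted p under 0.05, 6 higher and 4 lower, where 58.5% of all tested genes were called, 29.6% higher and 28.9% lower. None of the 10 had overlapping groups. With 2 libraries a group this says little, as the groups of the uncalled junction genes Tjp3 and Jup did not overlap either. The share of all genes without overlap was not counted in any comparison.

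As log2 fold changes ± SE, Krt19 was at 3.16 ± 0.11 (adjusted p = 3.57e-15), Krt8 at 2.42 ± 0.10 (6.27e-14) and Krt18 at 1.78 ± 0.11 (1.55e-11). Cldn4 averaged 253 ± 16.9 CPM on D3 and 120 ± 0.54 CPM on D2 (SD, n = 2 each; 1.08 ± 0.06, adjusted p = 1.99e-12). Esrp2 was at 0.92 ± 0.10 (1.3e-07) and Cldn6 at 0.48 ± 0.06 (1.62e-06). Epcam averaged 170 ± 9.2 CPM on D3 and 353 ± 5.44 CPM on D2 (-1.05 ± 0.07, adjusted p = 3.35e-11). Grhl2 was at -1.01 ± 0.08 (5.3e-10), Esrp1 at -0.91 ± 0.06 (9.82e-11) and Cldn7 at -0.32 ± 0.07 (0.000405). Cldn7 thus differed in direction from the other claudins and Esrp1 from Esrp2, while the 3 keratins rose together.

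Of 14 adherens junction and desmosome genes 6 rose and 3 fell (median log2 fold change 0.07, against 0 over all genes). The rises with the largest changes were desmosomal: the plaque protein gene Dsp at 2.08 ± 0.07 (111 CPM on D3 and 26.3 on D2), the cadherin genes Dsc2 (1.94 ± 0.09) and Dsg2 (1.28 ± 0.09), and Perp (1.84 ± 0.07). Of 11 tested tight junction genes 5 rose, such as F11r, which encodes the adhesion molecule JAM-A (0.83 ± 0.06), and 3 fell. Of 13 polarity genes 1 rose, Dlg1 (0.49 ± 0.04), and 8 fell, such as the trafficking gene Rab25 (-1.79 ± 0.14) and Marveld3 (-0.46 ± 0.13), which is also in the tight junction list. Of 6 epithelial protease and inhibitor genes 4 rose, among them the membrane protease Tmprss2 (3.24 ± 0.12, 45 CPM on D3 and 4.75 on D2), and 1 fell.

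Among 8 tested epithelial transcription factors 5 rose and 2 fell. Grhl3, a paralogue of Grhl2, rose by 1.99 ± 0.12 (14.6 CPM on D3 and 3.69 on D2), the opposite direction to Grhl2. Klf4 rose by 1.19 ± 0.08 and Tfap2c by 0.66 ± 0.06, while Ovol2, a repressor of mesenchymal genes, fell (-0.62 ± 0.13). Of 9 transcription factors that repress epithelial genes 5 rose and 4 were not called, Snai1 by 1.19 ± 0.15 and Zeb2 by 0.56 ± 0.07. Among 11 intermediate filament genes of other cells 5 rose and 4 fell, with Vim, of mesenchymal cells, at 0.95 ± 0.06 and the neurofilament gene Nefh at -0.93 ± 0.09. Of 10 tested other keratins 4 rose and 3 fell, Krt7 at 0.92 ± 0.17, and of 10 other claudins 2 rose and 2 fell, Cldn12 at 0.59 ± 0.04. Of 10 splicing regulators other than Esrp 2 rose and 2 fell.

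Several marker lists of other cells moved as well. The 7 surface ectoderm markers summed to 67.9 to 81.4 CPM on D3 and 4.68 to 5.24 CPM on D2, with 3 and 1 of the 7 over 1 CPM, and 3 of the 4 tested rose. These were Wnt6, with 56.8 CPM on D3 and 0.411 on D2, Grhl3, and Krt15, with 136 and 3 counts over both libraries, while Krt5, Krt14 and Trp63 had 23, 6 and 13 counts over both D3 libraries. The 8 definitive endoderm markers summed to 84.9 to 93.5 CPM on D3 and 39.4 to 43 CPM on D2, with 7 and 6 over 1 CPM and Cer1 at 1 count over the D3 libraries, and 6 of the 7 tested rose, such as Sox17, with 17.2 CPM on D3 and 2.99 on D2. The 6 trophoblast markers summed to 48.4 to 51.3 CPM on D3 and 30.2 to 30.4 CPM on D2, with 3 and 2 over 1 CPM, Tpbpa at 0 in both groups and Elf5 at 1 count in each, and all 4 tested rose. The 8 feeder fibroblast markers summed to 329 to 330 CPM on D3 and 156 to 195 CPM on D2, with 7 over 1 CPM in each, and 6 of the 8 rose. The 5 visceral endoderm markers summed to 184 to 195 CPM on D3 and 207 to 240 CPM on D2, with 3 and 2 over 1 CPM, and 1 lower and 4 not called. In every group Cubn made up most of the visceral endoderm sum, with 176 CPM on D3 and 213 on D2. Likewise Tfap2c made up most of the trophoblast sum in every group, with 39.6 CPM on D3 and 25 on D2. Of these markers Grhl3, Trp63, Tfap2c, Krt5, Krt7, Krt14 and Krt15 are also in the lists above. The part of such cells in the changes was not tested.

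**Figure D3:**
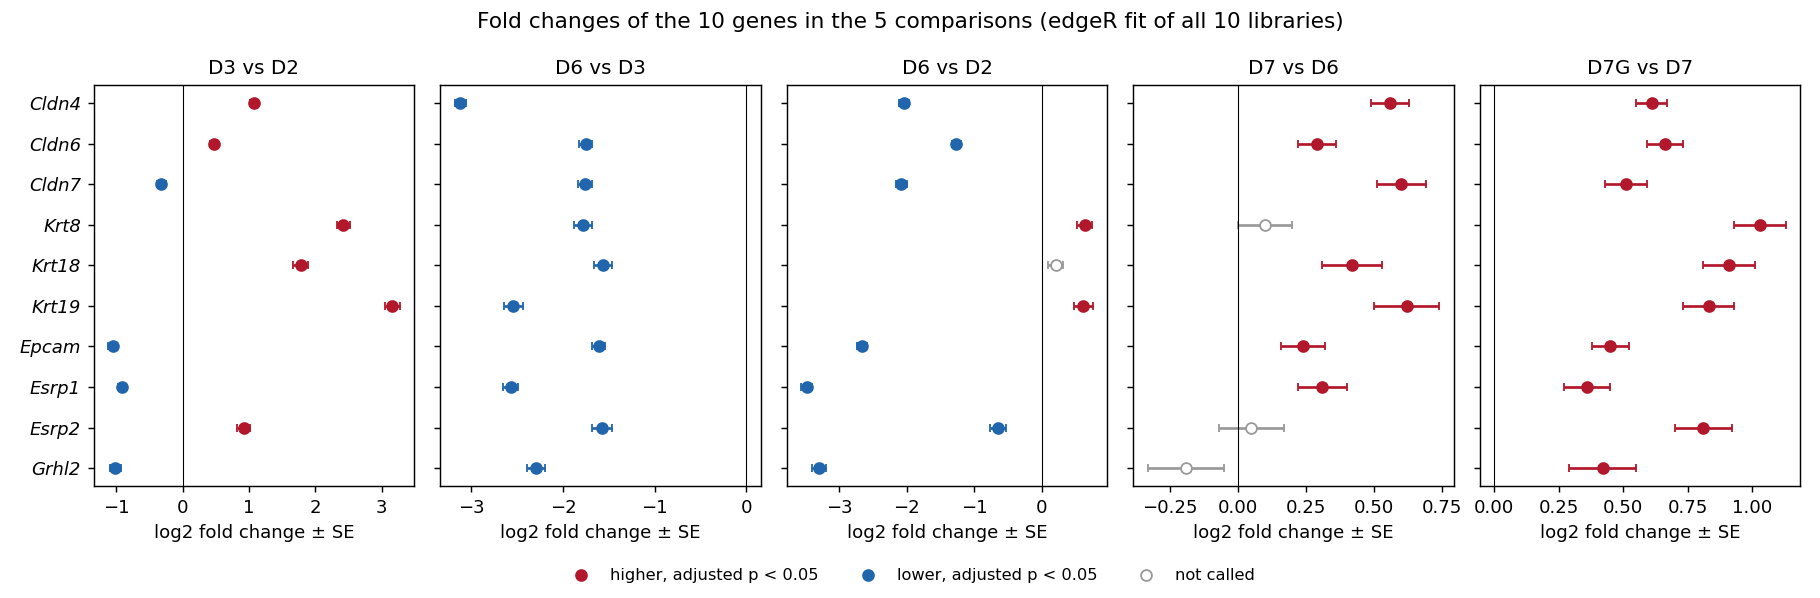
Log2 fold change ± SE of the 10 genes in the 5 comparisons, from 1 edgeR fit of all 10 libraries, each panel with its own x axis; red is higher, blue lower and open grey not called at an adjusted p of 0.05. Called genes split by direction in D3 against D2 and D6 against D2; all 10 are lower in D6 against D3 and all 10 higher in D7G against D7.

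Over the next 3 days all 10 genes fell. In D6 against D3 the falls ran from 2.95-fold for Krt18 to 8.7-fold for Cldn4, and Esrp1, Krt19 and Grhl2 fell 5.93-fold, 5.8-fold and 4.88-fold. Of all tested genes 65.7% were called, 32.4% higher and 33.3% lower. The 10 genes had a median log2 fold change of -1.77, against -0.007 over all genes. None of the 10 had overlapping groups, and neither had the uncalled Ctnnb1.

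Cldn4 averaged 29.1 ± 1.84 CPM on D6 and 253 ± 16.9 CPM on D3 (-3.12 ± 0.06, adjusted p = 1.87e-18). Cldn7 and Cldn6 changed by nearly the same amount, -1.76 ± 0.08 and -1.75 ± 0.07. Krt19 was at -2.54 ± 0.10 (adjusted p = 2.18e-14), Krt8 at -1.78 ± 0.10 and Krt18 at -1.56 ± 0.10. Esrp1 averaged 11.3 ± 1.21 CPM on D6 and 67.3 ± 1.21 CPM on D3 (-2.57 ± 0.08, adjusted p = 4.14e-16). Grhl2 was at -2.29 ± 0.10 (1.5e-13), Epcam at -1.61 ± 0.07 (1.36e-13) and Esrp2 at -1.57 ± 0.11 (8.26e-11).

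Junction genes outside the 10 fell in the same interval. Of 14 adherens junction and desmosome genes 13 fell and 1 was not called (median -1.56), Perp by 2.88 ± 0.07, P-cadherin (Cdh3) by 2.47 ± 0.09 and E-cadherin (Cdh1) by 1.88 ± 0.07, with 124 CPM on D6 and 455 on D3. Of 11 tight junction genes 8 fell and 2 rose, the tricellulin gene Marveld2 at -2.24 ± 0.09, the scaffold gene Tjp3 at -2.11 ± 0.12 and occludin (Ocln) at -2.07 ± 0.09. All 6 protease and inhibitor genes fell, Spint1 by 2.25 ± 0.06 and Prss8 by 2.16 ± 0.09. Of 13 polarity genes 9 fell, such as the Crumbs gene Crb3 (-1.86 ± 0.10), and 4 rose. Among 8 epithelial transcription factors 7 fell, such as Grhl1 (-1.85 ± 0.14) and Grhl3 (-1.48 ± 0.11), and 1 was not called.

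Of 9 repressors of epithelial genes 8 rose and 1 was not called (median 1.02). Twist1 rose by 2.86 ± 0.11, with 38.4 CPM on D6 and 5.3 on D3, Zeb1 by 1.82 ± 0.07, with 55.9 and 15.9 CPM, and Foxc2 by 5.76 ± 0.30. Of 11 other intermediate filament genes 7 fell and 2 rose, with the neuronal gene Prph at -5.99 ± 0.12 and the muscle gene Des at -2.93 ± 0.17. Of 10 splicing regulators 6 rose and 3 fell, Qk at 0.46 ± 0.05 and Mbnl2 at -1.43 ± 0.06. The other claudins split, 4 rising and 3 falling, with Cldn3 at -2.60 ± 0.12 and Cldn12 at 0.29 ± 0.04, and the other keratins gave 3 rises and 3 falls. Surface ectoderm markers summed to 13.1 to 13.9 CPM on D6 and 67.9 to 81.4 on D3, and trophoblast markers to 24.9 to 27.2 and 48.4 to 51.3 CPM. Definitive endoderm markers summed to 108 to 117 CPM on D6 and 84.9 to 93.5 on D3. Of the 7 tested endoderm markers 2 were higher, 1 was lower and 4 were not called (median 0). Cxcr4 had 38.5 CPM on D6 and 12.1 on D3, and Gata4 29.9 and 33.7 CPM. Feeder fibroblast markers summed to 243 to 244 CPM on D6 and 329 to 330 CPM on D3. Of these 8 markers 6 fell, such as the collagen gene Col1a1 with 8.17 CPM on D6 and 98.1 on D3, and 2 rose, such as Col3a1 with 173 and 27.5 CPM. Primed epiblast markers summed to 211 to 244 CPM on D6 and 414 to 423 CPM on D3, with 3 of 5 lower and 1 higher. The part of these cells was not tested.

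**Figure D4:**
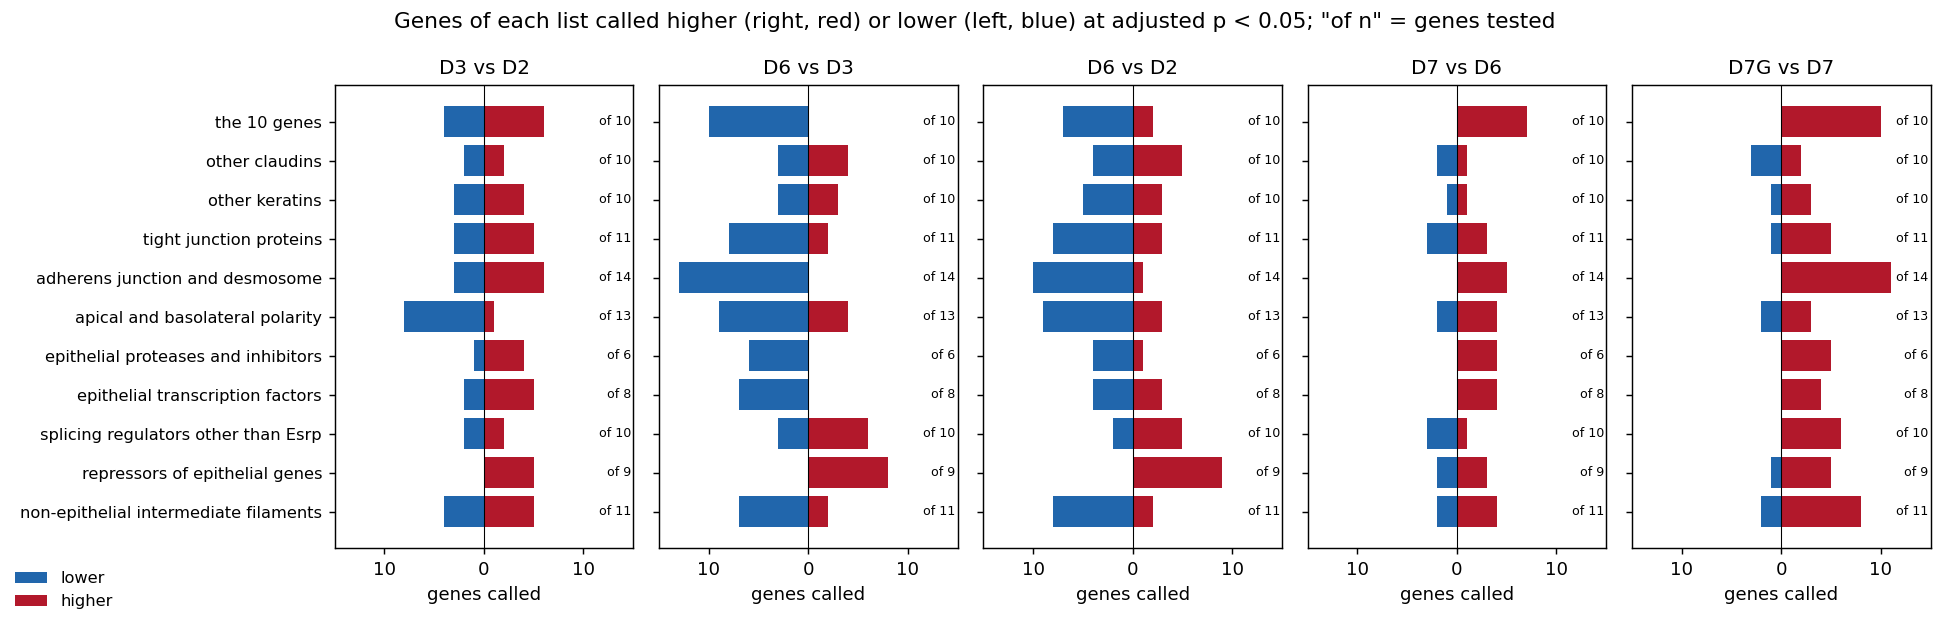
Number of genes called higher (red, right) and lower (blue, left) in each gene list and comparison, with the number tested at the right edge of each panel. In D6 against D3 all 10 genes and 13 of 14 adherens junction and desmosome genes are lower, while 8 of 9 repressors of epithelial genes are higher.

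The net change before Gdf11 was read from D6 against D2, which shares its libraries with both steps above. Esrp1, Grhl2 and Epcam had fallen furthest, 11.1-fold, 9.85-fold and 6.31-fold, and Cldn7, Cldn4, Cldn6 and Esrp2 had fallen too. Krt8 and Krt19 remained 1.56-fold and 1.54-fold above D2. In all 7 genes were lower and 2 higher, where 69.6% of tested genes were called, 35.5% lower and 34.1% higher. Esrp1 averaged 11.3 ± 1.21 CPM on D6 and 126 ± 0.955 CPM on D2 (-3.48 ± 0.08, adjusted p = 7.34e-19), and Grhl2 4.34 ± 0.625 and 42.8 ± 0.617 CPM (-3.30 ± 0.10, 7.34e-17). Epcam was at -2.66 ± 0.07, Cldn7 at -2.08 ± 0.08, Cldn4 at -2.04 ± 0.07, Cldn6 at -1.26 ± 0.07 and Esrp2 at -0.65 ± 0.12. Krt8 was at 0.64 ± 0.11 (2.43e-05) and Krt19 at 0.62 ± 0.14 (0.000467).

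Krt18, with 58.9 ± 0.126 CPM on D6 and 50.8 ± 0.831 CPM on D2, was not called (0.21 ± 0.11, adjusted p = 0.0975), although its groups did not overlap. It was called with only the D6 and D2 libraries in the fit (0.23, adjusted p = 0.000661). It was also called without D3 replicate 1 or replicate 2 (0.0107 each) and without D7G replicate 1 (0.0401) or replicate 2 (0.0398), groups in which its replicates differed widely. All 9 repressors of epithelial genes were higher on D6 than on D2, and of the 14 adherens junction and desmosome genes 10 were lower and 1 higher, Cdh1 at -2.56 ± 0.07 with 124 and 728 CPM. Of 11 tight junction genes 8 were lower and 3 higher, of 13 polarity genes 9 and 3, of 6 protease genes 4 and 1, of 8 epithelial transcription factors 4 and 3, of 10 splicing regulators 2 and 5, and of 11 other filament genes 8 and 2. Other claudins gave 4 lower and 5 higher, and other keratins 5 and 3. Definitive endoderm markers summed to 108 to 117 CPM on D6 and 39.4 to 43 CPM on D2, and surface ectoderm markers to 13.1 to 13.9 and 4.68 to 5.24 CPM. Primed epiblast markers summed to 211 to 244 CPM on D6 and 2190 CPM on D2. Feeder fibroblast markers summed to 243 to 244 CPM on D6 and 156 to 195 CPM on D2, although 5 of the 8 were lower and 2 higher. Col1a1 had 8.17 CPM on D6 and 53.4 on D2, and Col3a1 173 and 22.2 CPM. The part of all these cells was not tested.

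The last day without Gdf11 brought small rises. In D7 against D6, 7 genes were called higher and 3 were not called, where 36% of all tested genes were called, 20.5% higher and 15.6% lower. Krt19 (1.54-fold), Cldn7 (1.51-fold) and Cldn4 (1.48-fold) rose most, and Krt18, Esrp1, Cldn6 and Epcam by 1.33-fold or less. Cldn4 averaged 43 ± 4.86 CPM on D7 and 29.1 ± 1.84 CPM on D6 (0.56 ± 0.07, adjusted p = 5.13e-06). Cldn7 was at 0.60 ± 0.09 (2.83e-05), Krt19 at 0.62 ± 0.12 (0.000321), Krt18 at 0.42 ± 0.11 (0.00465), Esrp1 at 0.31 ± 0.09 (0.0135), Cldn6 at 0.29 ± 0.07 (0.00345) and Epcam at 0.24 ± 0.08 (0.0178). Krt8 (0.10 ± 0.10), Esrp2 (0.05 ± 0.12) and Grhl2 (-0.19 ± 0.14) were not called, and the groups of Esrp2 and Grhl2 overlapped.

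The excess of higher over lower calls across all genes, 3853 against 2929, turned round in some settings, with 2892 higher and 3090 lower without a filter, 3249 and 3360 with only the D7 and D6 libraries, and 2294 and 2664 without D7 replicate 2. Several calls among the 10 genes rested on single libraries. Only 3 genes were called without D7 replicate 2, 4 without D6 replicate 1 and 6 without D7 replicate 1. Cldn4, Cldn7 and Krt19 were called in every fit, whereas Epcam was not called without D7 replicate 1 (adjusted p = 0.0831), D7 replicate 2 (0.212) or D6 replicate 1 (0.287). Cldn6 was lost without D7 replicate 2 (0.165) or D6 replicate 1 (0.0505), Esrp1 without the same libraries (0.197 and 0.18), and Krt18 without D7 replicate 2 (0.0954). DESeq2 did not call Krt18 (0.0601) or Epcam (0.146). Of the 14 adherens junction and desmosome genes 5 rose and 9 were not called, the plakoglobin gene Jup by 0.37 ± 0.09. Of 6 protease genes 4 rose and 2 were not called, Prss8 by 0.64 ± 0.10, and of 8 epithelial transcription factors 4 rose and 4 were not called, Klf5 by 0.57 ± 0.11. Tight junction genes gave 3 rises and 3 falls of 11, polarity genes 4 and 2 of 13, repressors of epithelial genes 3 and 2 of 9, splicing regulators 1 and 3 of 10, other filament genes 4 and 2 of 11, other claudins 1 and 2 of 10 and other keratins 1 and 1 of 10. Feeder fibroblast markers summed to 361 to 387 CPM on D7 and 243 to 244 CPM on D6 (5 of 8 rose), definitive endoderm markers to 128 to 134 and 108 to 117 CPM (2 of 7 tested rose), and trophoblast markers to 31.6 to 32.7 and 24.9 to 27.2 CPM (2 of 4 tested rose). Their part was not tested.

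With Gdf11 all 10 genes were higher than in the untreated cells of the same day. In D7G against D7, Krt8 rose 2.05-fold, Krt18 1.87-fold, Krt19 1.77-fold and Esrp2 1.76-fold, followed by Cldn6, Cldn4, Cldn7, Epcam, Grhl2 and Esrp1 at 1.57-fold to 1.29-fold. The 10 calls compare with 40.7% of all tested genes called, 22.5% higher and 18.2% lower, and the median log2 fold change was 0.63 against 0.022 over all genes. The excess of higher calls over all genes turned round with no filter, at 3393 higher and 3503 lower, and narrowly without D7 replicate 2. In none of the 10 genes did the groups overlap, as was also so for the uncalled Krt8 in D7 against D6. The comparison of D7G with D7 shares the D7 libraries with the one before it.

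Krt8 averaged 121 ± 17.1 CPM on D7G and 59.1 ± 0.899 CPM on D7 (1.03 ± 0.10, adjusted p = 3.61e-08). Krt18 was at 0.91 ± 0.10 (4.78e-07), Krt19 at 0.83 ± 0.10 (1.56e-06) and Esrp2 at 0.81 ± 0.11 (7.77e-06). Cldn6 averaged 83.9 ± 7.38 CPM on D7G and 53.3 ± 4.63 CPM on D7 (0.66 ± 0.07, adjusted p = 2.09e-07). Cldn4 was at 0.61 ± 0.06 (2.53e-07), Cldn7 at 0.51 ± 0.08 (2.74e-05) and Epcam at 0.45 ± 0.07 (4.52e-05). The smallest and least firm changes were those of Grhl2, with 5.09 ± 0.516 CPM on D7G and 3.81 ± 0.492 on D7 (0.42 ± 0.13, 0.0163), and Esrp1, with 18.1 ± 2.62 and 14.1 ± 0.848 CPM (0.36 ± 0.09, 0.00213). Grhl2 was not called without D7G replicate 1 (adjusted p = 0.19) or D7 replicate 2 (0.219), with no filter (0.0539) or with only these libraries (0.0506), and Esrp1 not without D7G replicate 1 (0.125) or D7 replicate 1 (0.0526).

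Set against D3, the D7G levels differed widely between genes. As a share of the D3 mean, Krt18 on D7G stood at 84.6%, Cldn7 at 63.8%, Krt8 at 63.6%, Esrp2 at 61.2%, Cldn6 at 57.6%, Epcam at 53.2%, Krt19 at 47.1%, Esrp1 at 26.9%, Cldn4 at 25.9% and Grhl2 at 24%. As a share of the D2 mean, Grhl2 stood at 11.9%, Esrp1 at 14.4%, Epcam at 25.7%, Cldn7 at 51.1%, Cldn4 at 54.9% and Cldn6 at 80.5%. Esrp2 stood at 116%, Krt18 at 290%, Krt8 at 341% and Krt19 at 420%. Esrp1 and Grhl2 thus stayed far under their D2 levels in the libraries in which keratins lay well above theirs. Epcam and the claudins were under their D2 means too, and the regulator Esrp2 was not.

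Of 14 adherens junction and desmosome genes 11 rose and 3 were not called (median 0.44). Jup rose by 0.96 ± 0.08, with 51.8 CPM on D7G and 26.6 on D7, Cdh3 by 0.88 ± 0.10, Perp by 0.67 ± 0.08 and Cdh1 by 0.62 ± 0.07, with 215 and 139 CPM. Of 6 protease and inhibitor genes 5 rose, such as St14 (0.61 ± 0.08) and Spint2 (0.54 ± 0.07), and 1 was not called. Of 11 tight junction genes 5 rose, such as Marveld2 (0.60 ± 0.10) and Lsr (0.38 ± 0.07), and 1 fell. Polarity genes gave 3 rises, such as Patj (0.55 ± 0.07), and 2 falls of 13, and epithelial transcription factors 4 rises, such as Grhl3 (0.61 ± 0.12), of 8, with the other 4 not called.

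Repressors of epithelial genes and other filament genes rose as well. Of 9 repressors of epithelial genes 5 rose and 1 fell, with Twist2 at 2.30 ± 0.13, Snai1 at 1.25 ± 0.12, with 13.9 CPM on D7G and 5.82 on D7, and Twist1 at 1.06 ± 0.07, with 88 and 42.2 CPM, while Foxc2 fell (-1.86 ± 0.21). Of 11 other intermediate filament genes 8 rose and 2 fell, Lmna, which encodes a nuclear lamin that epithelial cells also have, at 1.10 ± 0.08 and Vim at 0.71 ± 0.05, with 692 and 424 CPM. Of 10 splicing regulators 6 rose and 4 were not called, Celf2 at 0.99 ± 0.07 and Rbm47 at 0.54 ± 0.11. Other keratins gave 3 rises and 1 fall of 10, Krt7 at 0.52 ± 0.19, and other claudins 2 rises and 3 falls of 10, Cldn12 at -0.45 ± 0.04.

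Several marker lists of other cells were higher on D7G. The 8 feeder fibroblast markers summed to 1050 to 1180 CPM on D7G and 361 to 387 CPM on D7, with 7 and 6 over 1 CPM, and 7 of the 8 rose. Col3a1 made up most of both sums, with 659 and 261 CPM, and Col1a1 had 241 and 27.3 CPM. Thy1 had 1.11 and 0.51 CPM and Dcn 0.671 and 0.524 CPM, where their D2 means were 9.2 and 4.43 CPM. The 7 surface ectoderm markers summed to 18 to 18.7 CPM on D7G and 11.9 to 13 on D7, with 3 over 1 CPM in each. Of the 4 tested 3 rose, Grhl3 (7.06 CPM on D7G and 4.62 on D7), Wnt6 (7.4 and 5.75 CPM) and Tfap2a (3.37 and 1.77 CPM), while Krt5 had 4 and 0 counts and Trp63 7 counts in each. The 8 definitive endoderm markers summed to 136 to 161 CPM on D7G and 128 to 134 on D7, with 7 over 1 CPM in each, Cer1 at 1 and 0 counts and Sox17 at 31.9 and 21.3 CPM, and 4 of the 7 tested rose and 1 fell. The sums of the 5 visceral endoderm markers overlapped, at 161 to 213 CPM on D7G and 142 to 169 on D7, with 4 over 1 CPM in each, and 2 of the 5 higher. Cubn, most of both sums, had 170 CPM on D7G and 145 on D7, and Apoa1 0.687 and 1.01 CPM. Ttr had 4.42 and 3.66 CPM, Amn 6.53 and 5, and Afp 4.68 and 0.63. The 2 D7G libraries of Afp differed, at 6.71 and 2.64 CPM. The 6 trophoblast markers summed to 33.7 to 37.5 CPM on D7G and 31.6 to 32.7 CPM on D7, with 2 over 1 CPM in each, and 1 of the 4 tested rose. The 5 primed epiblast markers summed to 207 to 234 CPM on D7G and 184 to 189 on D7, and 3 rose. The part of these cells in the rises was not tested.

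The level of Krt8 differed between the 2 deposited count tables. Its processed pseudogene Krt8-ps (chr7:23357125-23358069) is 98.6% identical to the Krt8 transcript over 941 bases. In the count table used here Krt8-ps held 212 to 1514 counts per library, and in the second deposited table, of the same libraries, 2 to 14. Krt8 counted 1.3 to 1.35 times as many reads in that second table, while the other 9 genes counted 0.905 to 1.02 times as many. The lowest of these ratios was of Esrp2 (0.905 to 0.995), whose transcript shares 219 bases at 100% identity with Nfatc3. In the count table used here Nfatc3 held 48326 counts over all libraries and Esrp2 3624. The part of these shared bases in the level of Esrp2 and its ratio to Esrp1 was not tested. Over all 10 libraries Krt8 had 10039 more counts in the second table and Krt8-ps 6281 fewer, so the gain of Krt8 was larger than the loss of the copy. Krt8-ps followed Krt8 across libraries at r = 0.999, and the part of reads shared with the copy in the difference was not tested. The Krt8 fold changes kept their direction and call in the second table and with both genes summed. Its level per length and its ratio to Krt18 are lower here than in the second table, where the ratio was 0.715 to 0.726 on D2, 1.13 to 1.17 on D3, 0.927 to 1.01 on D6, 0.847 to 0.872 on D7G and 0.775 to 0.814 on D7. The ratio was highest on D3 in both tables, but it passed 1 there only in the second.

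**Figure D5:**
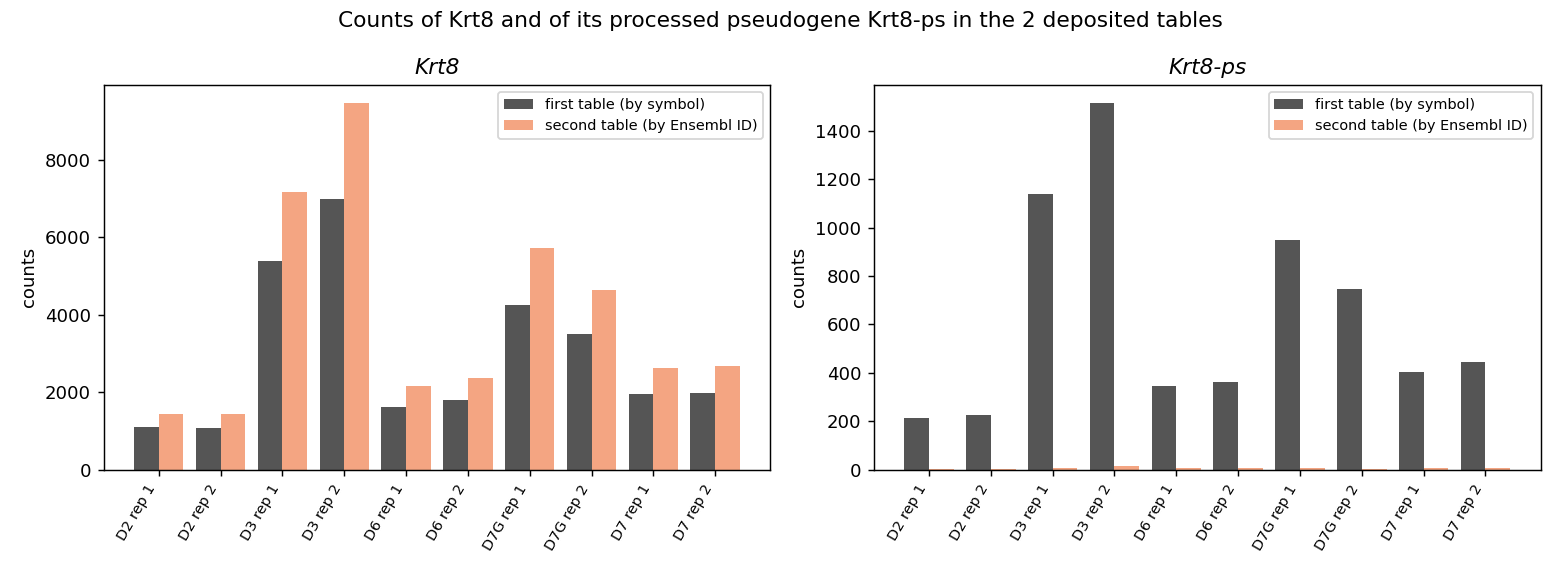
Counts of Krt8 (left) and its processed pseudogene Krt8-ps (right) in each library in the 2 deposited count tables, on linear axes from 0. Krt8-ps holds 212 to 1514 counts in the table by symbol and 2 to 14 in the table by Ensembl ID, where Krt8 is 1.3 to 1.35 times higher.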

How the data were processed

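The authors deposited 2 tables of whole-number counts per gene, 1 by symbol (52459 genes, used here) and 1 by Ensembl ID (55298 genes, an alternative). Tools named in the submitters' processing notes are featureCounts 1.6.3, HISAT2 2.1.0, STAR and limma, with the build mm10. Their roles, the gene model and the use of strand are not given in the sources used here. A deposited table of fold changes was not used.

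The counts were fitted with R 4.3.3 and edgeR 4.0.16 in 1 quasi-likelihood model of all 10 libraries, with TMM factors, filterByExpr and group as its only term (5 residual degrees of freedom, coefficient of variation 3.34%). P-values were adjusted by Benjamini-Hochberg over the 18818 genes tested, separately for each comparison, with calls made below 0.05. CPM are TMM-scaled, and errors are the SD of 2 libraries or the SE of a log2 fold change derived from the F statistic.

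All 10 genes are named in every comparison; from each list, up to 4 called genes with the largest changes and at least 5 CPM in a group. The genes and lists were chosen with earlier results of these data known. Similar transcripts were searched with BLAST (90% identity over 200 bases) in GENCODE vM21. The alternatives were DESeq2 1.42.0, limma-voom (limma 3.58.1), other scaling factors, other filters, the second table, only the libraries compared, a replicate block, each library left out and, chosen after seeing the data, Krt8 and Krt8-ps summed and the order of levels in the second table.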

Additional observations from a re-analysis of the deposited data

How the results depend on the processing

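The 50 fold changes of the 10 genes were recomputed under 21 settings, giving 1050 values, of which 1025 kept direction and side of the threshold, 18 lost a call, 5 gained one (Krt18 in D6 against D2) and 2 turned round. Both reversals were of Esrp2 in D7 against D6, an uncalled change, at -0.02 in the second table and -0.13 without D6 replicate 1, within a range of -0.13 to 0.25 when libraries were left out. No fold moved by more than 1.19 times. The number of the 10 genes called in D7 against D6 was 7, and 3 to 7 when 1 library was left out. It was 5 with DESeq2 and 5 with no filter, which lost Epcam (adjusted p = 0.101) and Esrp1 (0.0639). A group that loses a library keeps 1, which is then assumed to vary like the other groups. In the other 4 comparisons the number called among the 10 stayed within 1.5 times under all settings, as did the number over all genes in every comparison. Over all tested genes, same-numbered libraries did not deviate together (r of -0.076 to 0.1 over 10 pairs of groups). With 2 libraries a group, these values cannot show whether same-numbered libraries share a culture or batch. With the replicate block 10, 10, 9, 7 and 10 of the 10 genes were called in the 5 comparisons, and 11091 genes in D3 against D2, 12457 in D6 against D3, 13159 in D6 against D2, 6968 in D7 against D6 and 7807 in D7G against D7.

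With 2 libraries a group, changes such as those of Grhl2 and Esrp1 on day 7 rest on small differences between few libraries. TMM scaling presumes a majority of unchanged genes, and 36 to 69.6% of genes were called. Grhl2 had 115 to 174 counts per library on day 7, so its counting error is the largest of the 10.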
